A study of Oryza sativa with 9 samples.

Results

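The alpha-amylase genes of rice were examined here as a family. The members were listed by locus: *RAmy1A*, *RAmy1C*, *RAmy2A*, *RAmy3A*, *RAmy3B*, *RAmy3D*, *RAmy3E* and *RAmy3F*, named by subfamily, and *LOC_Os04g33040*, a chromosome 4 locus listed as an alpha-amylase. Of these 9 genes, 5 were found among the 38652 entries of the deposited table, namely *RAmy3D* (*LOC_Os08g36910*), *RAmy3B* (*LOC_Os09g28420*), *RAmy3F* (*LOC_Os01g25510*), *RAmy2A* (*LOC_Os06g49970*) and *LOC_Os04g33040*. *RAmy1A*, *RAmy1C*, *RAmy3A* and *RAmy3E* were not analysed here. The table describes *RAmy3B* and *RAmy2A* as alpha-amylase precursors and *RAmy3F* as an alpha-amylase isozyme. It gives no description, GO term or enzyme number for *RAmy3D* and *LOC_Os04g33040*, whose entries combine several transcripts, so for *LOC_Os04g33040* the label could not be checked in the table.

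The RNA came from leaves of IR64, an *indica* variety that is intolerant of submergence. Seedlings were sprayed at 20 days with 25 mL of paclobutrazol at 200 mg/L (PBT), of gibberellic acid at 100 mg/L (GAT) or of solvent only (control), and 2 days later went under 100 cm of water, where they stayed for 4 days before sampling. Every group was therefore submerged, and no group kept in air belongs to the comparison. The solvent of the control is called ethanol in the labels and methanol in the paper's text. By the paper, both compounds were first dissolved in ethanol, so whether the control spray matched their solvent is unclear. Each group has 3 libraries, described in the paper as biological triplicates, and neither source says how many plants went into a library.

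Alpha-amylases cut the internal glucosidic bonds of starch and so open the way for beta-amylases and glucosidases to release sugars. In the germinating cereal grain their genes are the classic targets of gibberellin, which acts through the MYB activator GAMYB. In rice, *RAmy3D* is known instead for its induction when sugar or oxygen is short, through the kinase SnRK1A and the MYB activator MYBS1, with the kinase CIPK15 upstream of them. Paclobutrazol blocks an early oxidation step in the synthesis of gibberellin, so both sprays change the hormone that the grain enzymes respond to.

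Expression is given as FPKM, the fragments assigned to a gene divided by its length in kilobases and scaled to the library's mapped fragments. Summed over all entries, FPKM ranged from 432165 to 471800 per library, and the number of fragments behind a gene is unknown. Leaf markers were abundant, with summed FPKM of the 3 Rubisco small chain entries of 8655 to 9091 in PBT, 6183 to 6428 in GAT and 13141 to 13842 in the control. The 12 entries described as chlorophyll a-b binding proteins summed to 5884 to 8602, 4750 to 5741 and 12373 to 13317 FPKM in PBT, GAT and the control. Of the 5 seed storage entries (4 glutelins and 1 prolamin), none exceeded 1.11 FPKM in any library, and 2 of the glutelins were at 0 in every library. The leaf markers thus stood lower in both sprayed groups than in the control, and their part in the changes described next was not tested. In such bulk samples, fewer cells of a type and less RNA per cell cannot be told apart.

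Of the 4 members tested, *RAmy3D* was the only gene whose changes passed the test described below. Its libraries were at 9.56, 8.79 and 13.0 FPKM in PBT, at 22.6, 26.7 and 24.3 FPKM in GAT and at 1.20, 0.990 and 0.867 FPKM in the control. The 3 groups did not overlap in any pair, with GAT highest, PBT between and the control lowest. The means were 10.4 ± 2.23 FPKM in PBT, 24.6 ± 2.08 FPKM in GAT and 1.02 ± 0.170 FPKM in the control (SD, n = 3 each), so that the ratio of means was 24.1 for GAT over the control and 10.2 for PBT over the control. In the control, 18.1% of all entries tested had a lower mean than *RAmy3D*, against 68.5% in PBT and 84.1% in GAT.

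**Figure D1:**
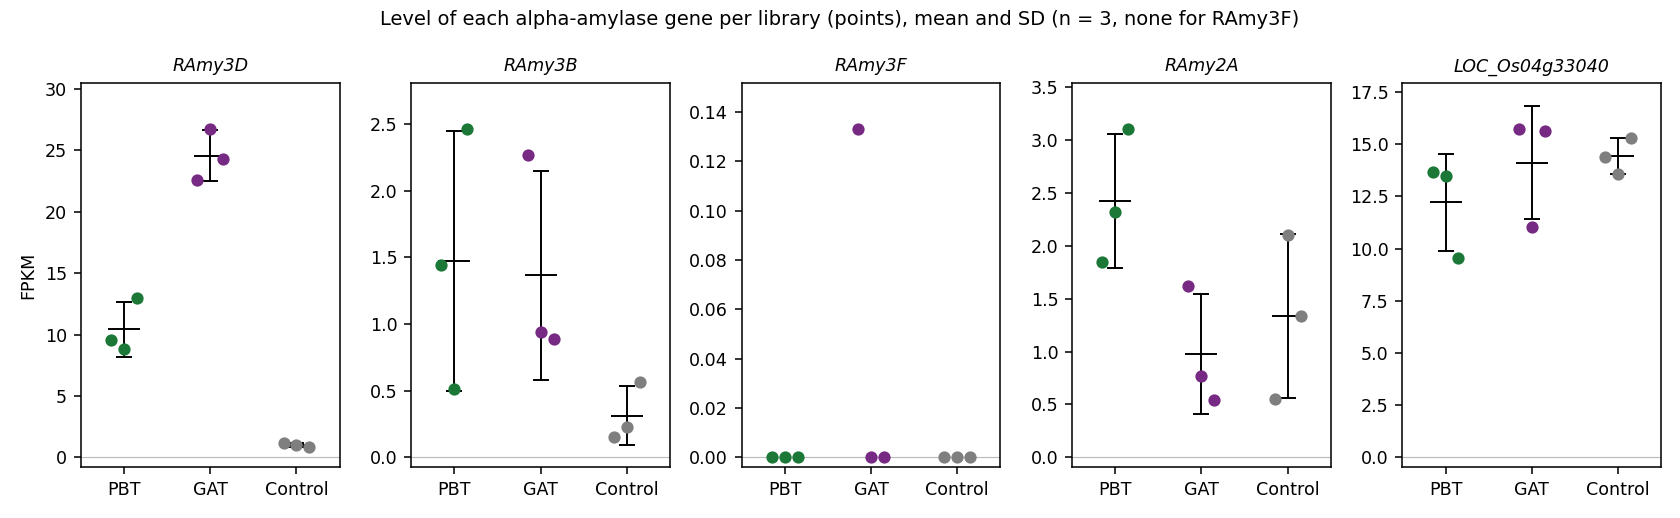
FPKM of the 5 analysed alpha-amylase genes (1 panel each, own vertical axis from 0) in the PBT, GAT and control libraries (points), with the mean and SD of 3 libraries, except for *RAmy3F*, which is at 0 in 8 libraries. *RAmy3D* separates into 3 levels, with GAT libraries between 22.6 and 26.7 FPKM and control libraries at or below 1.20 FPKM, while the groups of *LOC_Os04g33040* overlap.

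The changes were tested with limma on log2(FPKM + 1), over the 22946 entries whose mean across the libraries reached 0.5 FPKM. Since 1 is added before the logarithm, fold changes of low genes are understated. A gene was called a DEG when its adjusted p was under 0.05 and its log2 fold change reached 1 in either direction. Of the 5 members, 4 were tested and *RAmy3F* fell under the filter.

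In GAT/Control, *RAmy3D* rose by 3.66 on the log2 scale (SE 0.19, 95% interval 3.23 to 4.10, adjusted p = 1.31e-05). It was the only DEG among the 4 members tested, where 8.42% of all entries tested were called, 4.71% as higher and 3.72% as lower. In PBT/Control it rose as well, by 2.49 (SE 0.19, 95% interval 2.05 to 2.92, adjusted p = 0.000221), again as 1 of 4, with 4.34% of all entries called, 2.87% as higher and 1.47% as lower. PBT/GAT compared the sprays directly, and there *RAmy3D* was lower in PBT, with a log2 fold change of -1.17 (SE 0.19, 95% interval -1.61 to -0.74, adjusted p = 0.00650) and a ratio of means of 0.425. In PBT/GAT, 6.30% of all entries were called, 3.48% as higher and 2.82% as lower. GAT/Control and PBT/Control share the control libraries, so their values for *RAmy3D* are not independent of each other.

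The stepped order of *RAmy3D*, called as higher in both sprays than in the control and as lower in PBT than in GAT, was met by 32 of the 22946 entries tested (0.139%). Without the test, all GAT libraries lay above all PBT libraries and these above all control libraries in 415 entries (1.81%). By pair, all libraries lay above the control in 16.8% of entries for GAT and 12.9% for PBT, and all PBT libraries lay below all GAT libraries in 17.4%.

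**Figure D2:**
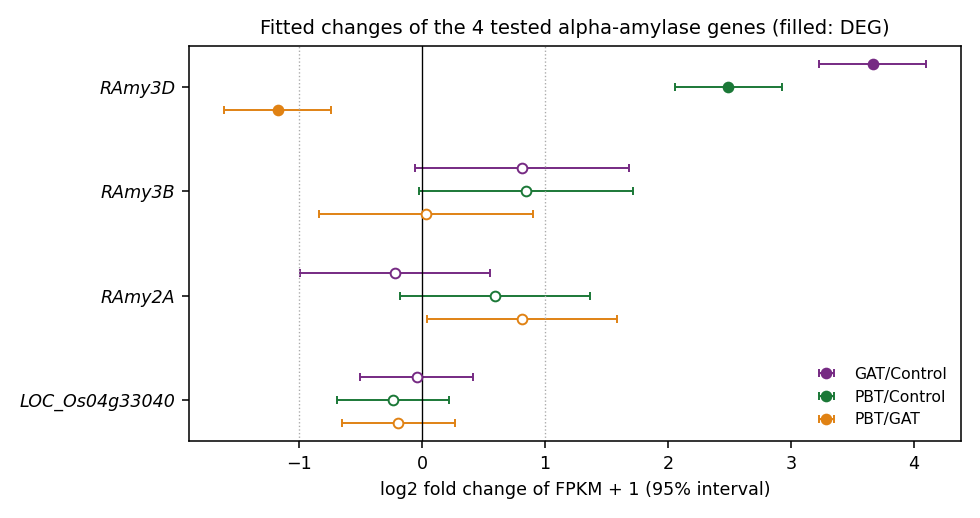
Log2 fold changes of FPKM + 1 with 95% intervals from limma for the 4 tested alpha-amylase genes, by comparison (dotted lines at 1 in either direction, filled points are DEGs). *RAmy3D* lies at 3.66, 2.49 and -1.17, and the other 3 genes have no filled point.

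*RAmy3B* belongs to the same subfamily as *RAmy3D* and was expressed at a much lower level. It was at 1.44, 0.513 and 2.46 FPKM in PBT, at 2.27, 0.944 and 0.886 FPKM in GAT and at 0.151, 0.225 and 0.565 FPKM in the control. All GAT libraries lay above all control libraries, as they did in 16.8% of the entries tested, whereas the PBT range overlapped that of the control and that of GAT. The ratio of means was 4.35 for GAT over the control and 4.69 for PBT over the control, but neither change passed the test, with estimates of 0.81 (SE 0.38, adjusted p = 0.229) in GAT/Control and 0.85 (SE 0.38, adjusted p = 0.266) in PBT/Control. The 95% intervals were wide, from -0.06 to 1.68 in GAT/Control and from -0.02 to 1.71 in PBT/Control. In PBT/GAT the log2 fold change was 0.03 (95% interval -0.84 to 0.90, adjusted p = 0.991).

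*RAmy3F*, the third member of the subfamily analysed here, was hardly detected in these leaves. It was listed at 0.133 FPKM in GAT replicate 1 and at 0 in the other libraries of GAT and in every PBT and control library. No test was made for this gene.

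*RAmy2A* is the only member of subfamily 2 in the list. It was at 1.85, 2.31 and 3.10 FPKM in PBT, at 1.61, 0.770 and 0.542 FPKM in GAT and at 0.556, 2.10 and 1.33 FPKM in the control. The PBT libraries all lay above the GAT libraries, as in 12.6% of the entries tested, and the control libraries overlapped both. The means were 2.42 ± 0.634 FPKM in PBT and 0.976 ± 0.565 FPKM in GAT (SD, n = 3 each). The PBT/GAT log2 fold change of 0.81 (SE 0.34, 95% interval 0.04 to 1.59) had an adjusted p of 0.190, so *RAmy2A* was not called, and the direction of the estimate was opposite to that of *RAmy3D*. Its estimates against the control were -0.22 in GAT (adjusted p = 0.740) and 0.59 in PBT (adjusted p = 0.397).

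*LOC_Os04g33040* had the highest mean of the 5 genes over the 9 libraries and showed no change that passed the test. It was at 13.6, 13.5 and 9.54 FPKM in PBT, at 15.7, 11.0 and 15.6 FPKM in GAT and at 14.4, 13.6 and 15.3 FPKM in the control. PBT replicate 3 and GAT replicate 2 were the lowest libraries, and the ranges of GAT and the control overlapped. Its estimates on the log2 scale were -0.04 in GAT/Control (95% interval -0.50 to 0.42, adjusted p = 0.930), -0.24 in PBT/Control (-0.69 to 0.22, adjusted p = 0.582) and -0.19 in PBT/GAT (-0.65 to 0.27, adjusted p = 0.625). All 3 intervals lie within a change of 1 in size, the limit used for DEGs.

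Summed over the 5 analysed members, FPKM was 26.6 ± 1.49 in PBT, 41.1 ± 1.47 in GAT and 17.1 ± 0.886 in the control (SD, n = 3 each), a description over members for which no test was made. *RAmy3D* made up 39.1% ± 6.19 of this sum in PBT and 60.0% ± 7.26 in GAT, against 6.01% ± 1.29 in the control (SD, n = 3 each). *LOC_Os04g33040* made up 46.4% ± 10.8 in PBT and 34.3% ± 5.52 in GAT, against 84.4% ± 3.98 in the control (SD, n = 3 each). No change in its own level passed the test, and by construction its share is lower where *RAmy3D* is higher. *RAmy2A* stayed between 1.31% and 12.5% of the sum in every library and *RAmy3B* between 0.926% and 8.77%. The 4 genes not analysed here are outside these sums.

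**Figure D3:**
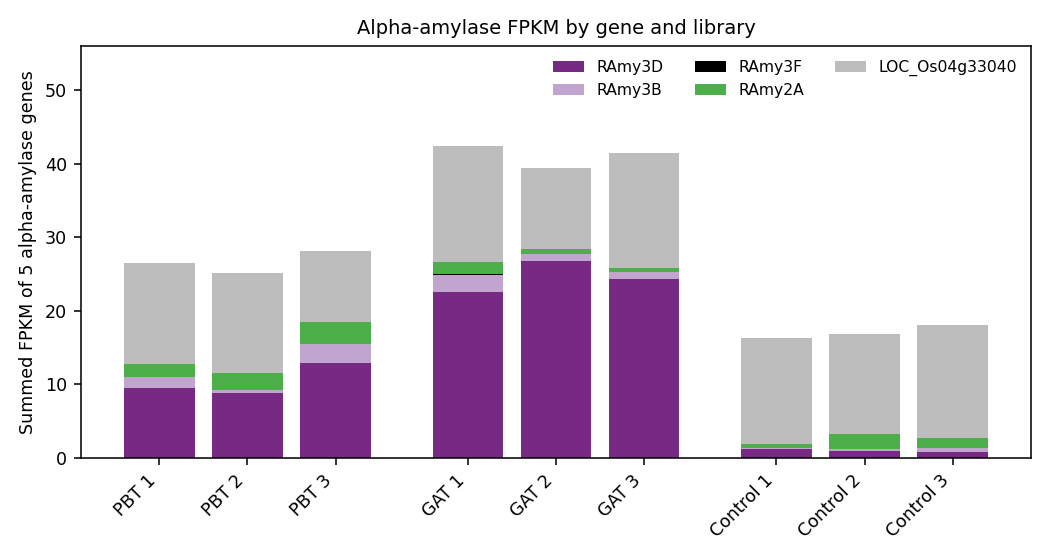
Summed FPKM of the 5 analysed alpha-amylase genes in each library, stacked by gene, with PBT, GAT and control libraries from left to right. The GAT libraries reach 39.5 to 42.3 FPKM and the control libraries 16.3 to 18.0 FPKM, and most of the difference is the *RAmy3D* part.

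The median log2 fold change of the 4 tested members was 0.39 for GAT/Control, beside 0.03 over all entries tested. For PBT/Control it was 0.72 beside -0.04, and for PBT/GAT -0.08 beside -0.07. *RAmy3D* had the largest change of the 4 in each comparison and so set none of these medians.

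Close relatives lie next to some of the members. In RefSeq (assembly ASM3414082v1), *RAmy3D* directly neighbours *RAmy3E* on chromosome 8 and *RAmy3B* directly neighbours *RAmy3A* on chromosome 9. How fragments that match several members were divided among them is not given in the sources used here, so the split between such neighbours is uncertain. The locus names of *RAmy3D* and *RAmy3B* are each carried by a second entry of the table, whose transcripts do not hold the locus itself. The second entry of *RAmy3D* was at 0 in all PBT and control libraries and at 0, 1.84 and 7.39 FPKM in GAT. That of *RAmy3B* was at 1.83, 3.82 and 3.32 FPKM in PBT, at 0, 4.31 and 1.87 FPKM in GAT and at 1.93, 2.39 and 0 FPKM in the control. Its level was above that of the main *RAmy3B* entry in 7 of the 9 libraries, so the level of this locus depends on which entry is read.

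Regulators of the alpha-amylase genes were taken from a list of 8 loci. All 8 were tested, and *CIPK15* was the only DEG among them, in GAT/Control alone, where 8.42% of all entries were called, so 1 of 8 is near the share over all entries. *CIPK15*, the kinase placed upstream of *RAmy3D* in the oxygen-shortage pathway, was at 87.5, 77.3 and 74.4 FPKM in PBT, at 141, 142 and 132 FPKM in GAT and at 54.1, 49.1 and 51.7 FPKM in the control. The libraries of *CIPK15* fell in the same order as those of *RAmy3D* and did not overlap between groups, an order shared by 1.81% of the entries tested. The locus name of *CIPK15* is also carried by a second entry, which is not part of the values given here. *CIPK15* has a near-identical copy in the genome, *CIPK14*, so the split of reads between them is uncertain. Its log2 fold changes were 1.41 in GAT/Control (SE 0.11, adjusted p = 8.37e-05), 0.61 in PBT/Control (SE 0.11, adjusted p = 0.0117) and -0.79 in PBT/GAT (SE 0.11, adjusted p = 0.00271). The changes in PBT/Control and PBT/GAT passed the limit on p and not the limit on fold.

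Among the MYB factors, *GAMYB* was at 2.22, 1.49 and 1.86 FPKM in PBT, at 1.75, 2.35 and 2.94 FPKM in GAT and at 0.671, 2.12 and 0.719 FPKM in the control. Its log2 fold change of 0.67 in GAT/Control (95% interval -0.03 to 1.37) had an adjusted p of 0.216. *MYBS1*, which activates *RAmy3D* in sugar-starved cells, was at 8.11, 9.59 and 12.1 FPKM in PBT, at 25.6, 27.1 and 11.0 FPKM in GAT and at 16.1, 18.8 and 1.64 FPKM in the control. Control replicate 3 and GAT replicate 3 stood far below the other libraries of their groups, the groups overlapped, and the interval of the GAT/Control change ran from -0.52 to 2.74 (adjusted p = 0.395). *MYBS2* and *MYBS3*, repressors that bind the same promoter element as *MYBS1*, had estimates of -0.50 (adjusted p = 0.155) and -0.92 (adjusted p = 0.213) in GAT/Control and of 0.59 (adjusted p = 0.111) and 1.10 (adjusted p = 0.154) in PBT/GAT. The GAT libraries of both repressors lay below all PBT and all control libraries, with 17.5 to 22.2 FPKM in PBT, 9.21 to 14.3 FPKM in GAT and 16.3 to 18.9 FPKM in the control for *MYBS2* and 56.1 to 61.0 FPKM in PBT, 11.6 to 43.4 FPKM in GAT and 45.1 to 61.5 FPKM in the control for *MYBS3*. GAT libraries lay below all control libraries in 12.8% of the entries tested, and PBT libraries lay above all GAT libraries in 12.6%. Neither repressor was called.

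The kinase *SnRK1A*, which carries the sugar-starvation signal, was at 21.8 to 22.3 FPKM in PBT, below all control libraries as in 13.4% of the entries tested, at 21.4 to 38.7 FPKM in GAT and at 27.5 to 30.7 FPKM in the control, with estimates of 0.02 in GAT/Control (adjusted p = 0.980) and -0.39 in PBT/Control (adjusted p = 0.336). Of the related kinases, *SnRK1B* was at 8.54 to 11.9 FPKM in PBT, 5.09 to 7.18 FPKM in GAT and 7.96 to 14.3 FPKM in the control, with a GAT/Control estimate of -0.66 (adjusted p = 0.135). *OSK3* was at 7.51 to 13.0 FPKM in PBT, 11.5 to 26.1 FPKM in GAT and 8.50 to 10.4 FPKM in the control, with a GAT/Control estimate of 0.64 (adjusted p = 0.256). The GAT libraries of *SnRK1B* also lay below all PBT and all control libraries, beside the same shares of 12.6% and 12.8%. For *OSK3*, all GAT libraries lay above all control libraries, as in 16.8% of the entries tested. None of the 3 kinases of this family was called in any comparison.

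Other starch breakdown enzymes were found by their descriptions in the table, which are missing for many entries with several transcripts, so the list is not complete. It held 4 beta-amylases, 2 enzymes with an alpha amylase catalytic domain that the table assigns to debranching, and *LOC_Os01g51754*, a further alpha-amylase precursor outside the 9 listed genes. Of these 7, 5 were tested and none was called in any comparison, beside shares over all entries of 8.42% for GAT/Control, 4.34% for PBT/Control and 6.30% for PBT/GAT, at which a count of 0 among 5 is no result about the list. At an unadjusted p under 0.05 and the same fold limit, *LOC_Os09g39570* in PBT/GAT was the only such case in this list. *LOC_Os01g51754* was at 1.16, 1.50 and 1.38 FPKM in PBT, at 0.817, 0.843 and 0.700 FPKM in GAT and at 1.51, 1.70 and 1.20 FPKM in the control. Its GAT libraries were the 3 lowest of the 9, where GAT lay below the control in 12.8% and PBT above GAT in 12.6% of the entries tested. Its GAT/Control log2 fold change of -0.46 (SE 0.22, adjusted p = 0.244) was not called. Of the beta-amylases, which trim maltose from the chain ends, *LOC_Os09g39570* had the largest change in PBT/GAT, at -1.03 (SE 0.35, adjusted p = 0.110). It was at 0.645, 0.536 and 0.808 FPKM in PBT against 3.54, 1.46 and 2.47 FPKM in GAT. All PBT libraries lay below all GAT libraries in 17.4% of the entries tested. The control libraries of this gene, at 2.37, 0.595 and 1.48 FPKM, overlapped both groups. The debranching entry *LOC_Os05g32710*, under the filter and not tested, was at 0.348 to 0.903 FPKM in PBT and 0.494 to 0.735 FPKM in GAT and was listed at 0 in all control libraries.

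**Figure D4:**
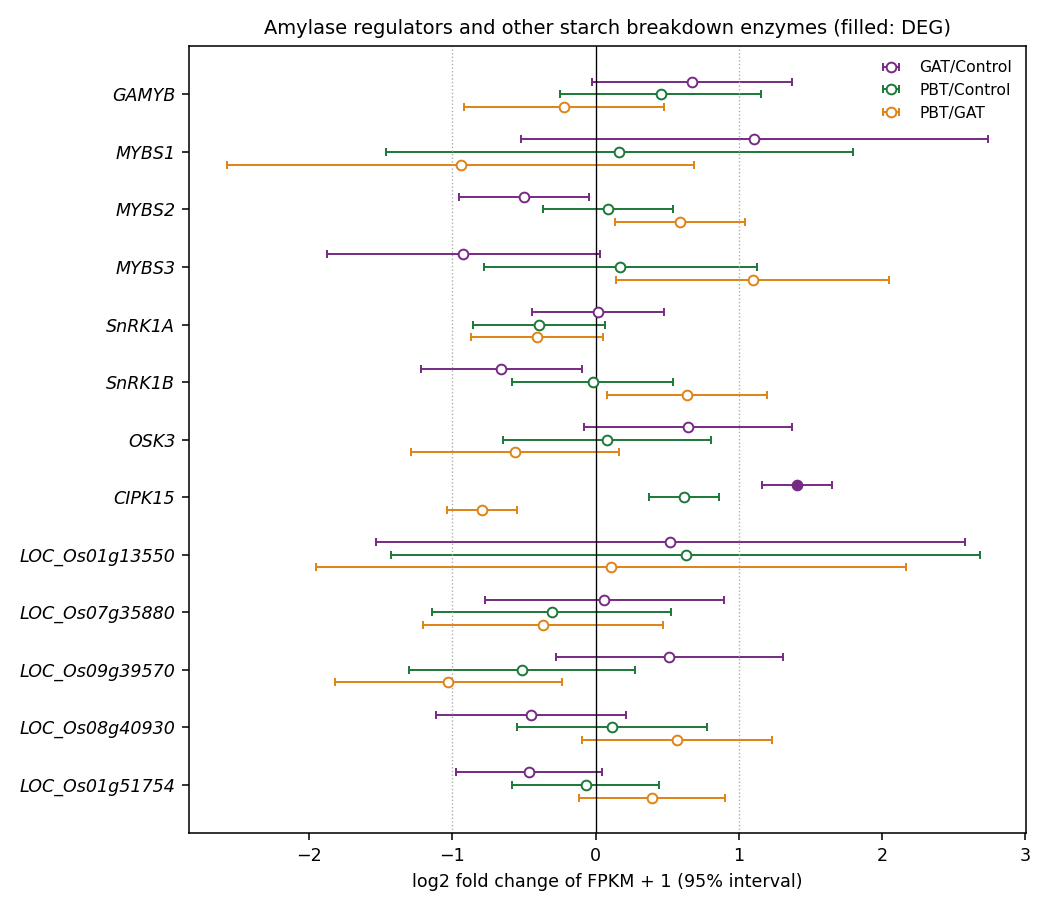
Log2 fold changes of FPKM + 1 with 95% intervals from limma for the 8 regulators and the 5 tested starch breakdown enzymes, by comparison (dotted lines at 1 in either direction, filled points are DEGs). The only filled point is *CIPK15* in GAT/Control, at 1.41.

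The likeness of other genes to the family members was measured by Pearson's r of log2(FPKM + 1) over the 9 libraries, among tested entries with a locus name, as a description without a test. The 9 points fall into 3 treatment groups, so a high r for *RAmy3D* mostly reflects the same order of group means. By the rule set for the member with the highest mean, *LOC_Os04g33040* was compared first, and the 5 genes most like it had r of 0.939 to 0.957, led by *LOC_Os03g21600* and *LOC_Os05g24880*. PBT replicate 3 and GAT replicate 2 were the lowest libraries in each, as in *LOC_Os04g33040* itself, which follows from how these 5 were chosen.

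For *RAmy3D*, which was added to the likeness comparison after its values were seen, the 5 most similar genes had r of 0.990 to 0.995. They were *LOC_Os05g41900*, described as a translation initiation factor SUI1, *LOC_Os07g39350*, a transporter family protein, *LOC_Os02g34600*, a protein kinase of the CAMK class, and *LOC_Os03g18030* and *LOC_Os12g42860*, for which the table has no description. *LOC_Os03g18030* was the nearest in size of change against the control, at 16.8, 16.4 and 20.2 FPKM in PBT, 55.0, 60.8 and 58.0 FPKM in GAT and 2.98, 1.89 and 2.45 FPKM in the control. *LOC_Os07g39350* was the most abundant, at 552, 575 and 550 FPKM in PBT, 890, 916 and 891 FPKM in GAT and 229, 208 and 223 FPKM in the control. *CIPK15* had r of 0.947 with *RAmy3D*. Among all tested entries, with or without a locus name, 155 besides *CIPK15* had an r at least as high, *RAmy3D* itself included. Within the family, r with *RAmy3D* was 0.701 for *RAmy3B*, -0.05 for *RAmy2A* and -0.25 for *LOC_Os04g33040*.

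**Figure D5:**
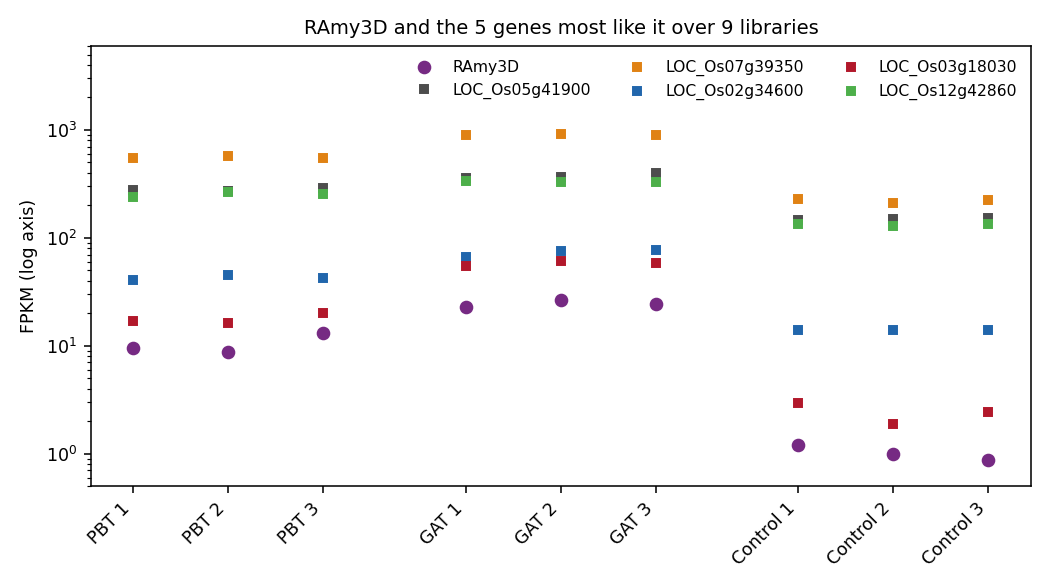
FPKM on a log axis of *RAmy3D* (circles) and the 5 genes with the highest Pearson's r to it (squares) in each library of PBT, GAT and the control. All 6 genes are highest in GAT, lower in PBT and lowest in the control, with *RAmy3D* at 22.6 to 26.7 FPKM in GAT and *LOC_Os07g39350* at 890 to 916 FPKM.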

How the data were processed

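Leaf RNA of 9 libraries (3 PBT, 3 GAT and 3 control) was analysed from FPKM values that the authors deposited per gene and library, without pooling. By the paper's methods, reads with adaptors or low quality were removed, the rest were aligned with Tophat to the MSU rice pseudomolecules, and transcripts were assembled with Cufflinks. The submitters' processing notes also name Bowtie 0.12.2 and list the mouse genome build mm8 beside the rice build IRGSP-1.0. Most entry identifiers carry MSTRG, the default prefix of another assembler, StringTie. The lower bound that the paper gives for uniquely mapped reads is far below the one it gives for mapped reads. A large part of the reads may therefore be multi-mapped, and how multi-mapped fragments were divided is not stated. Groups were taken from the labels of the libraries. The 9 single-library files were not used, as 4 carry the column name of another library. Replicates are biological triplicates by the paper. The p-values set group differences against the spread between replicates, pooled over the 3 groups and drawn toward a trend over all entries tested. FPKM give no fragment counts per gene, so no counting interval was computed.

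Of 38652 entries, 22946 with a mean over the libraries of 0.5 FPKM or more were kept. With limma 3.58.1 in R 4.3.3, 3 group means were fitted to log2(FPKM + 1) of all libraries, with a variance trend, and p was adjusted by the Benjamini-Hochberg method over all tested entries per comparison. The study's methods name Cuffdiff, which was not run. The script was tested on simulated data with changes of 2 on the log2 scale in genes of higher level. That setting does not cover smaller changes or genes of low level. Members were matched by locus, using the entry whose transcripts hold it (for *MYBS3* an entry without a locus name), and members and lists were chosen with earlier results of these data known. All members and regulators are named, with starch enzymes and similar genes as described. Alternatives changed the pseudocount, filter, library scale, libraries, replicate block, treatment of 0, summing by locus, trend and DEG limits. Sequences were not used here.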

Additional observations from a re-analysis of the deposited data

How the results depend on the processing

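*RAmy3D* was a DEG in all 3 comparisons under every alternative run, with log2 fold changes of 3.60 to 4.47 in GAT/Control, 2.33 to 3.23 in PBT/Control and -1.33 to -1.07 in PBT/GAT. The count of alpha-amylase DEGs was 1 in each comparison under all 23 alternatives, including each library left out in turn. The size of the *RAmy3B* change against the control depended on the pseudocount. At 0.1 its limma estimate was 1.83 in GAT/Control (adjusted p = 0.161) and 1.83 in PBT/Control (adjusted p = 0.215), and neither was called. The estimate of *RAmy3B* in PBT/GAT changed sign with a pseudocount of 0.1, to -0.0024, and ranged from -0.25 to 0.35 when 1 library was left out (below 0 without PBT replicate 3, GAT replicate 2 or GAT replicate 3). With 1 library left out, *LOC_Os04g33040* in GAT/Control ranged from -0.12 to 0.11 (0.11 without GAT replicate 2) and *RAmy2A* from -0.48 to 0.015 (0.015 without control replicate 2), and no such estimate was called. For the regulators and starch enzymes, the count was 1 in PBT/Control and 1 in PBT/GAT without a fold limit, and 2 in PBT/GAT with the fold limit on an unadjusted p, against 0 in both comparisons otherwise. Same-numbered libraries did not deviate together (r of -0.037 to 0.012), so the replicate number was not taken as a pairing. With the replicate block the count of alpha-amylase DEGs was 1 in each comparison. With libraries scaled to a common median, the summed FPKM of the members was 27.5 in PBT, 39.9 in GAT and 17.0 in the control. Each of these lay within 1 SD of the unscaled sum. Treating a single 0 as missing left the sums unchanged. Leaving out each library was added after the data were seen. With 3 libraries it cannot move a group mean by 1 SD, so it does not measure how stable the sums are. The filter at 5 FPKM left *RAmy3B* and *RAmy2A* untested. Levels near 1 FPKM, as those of *RAmy3B* and *RAmy2A*, limit what 3 libraries per group can show. The control level of *RAmy3D* was also near 1 FPKM, so the size of its changes against the control is uncertain. Its GAT/Control estimate was 4.47 with a pseudocount of 0.1.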

Other observations

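The entries around *RAmy3D* in the assembly were looked at after their values were seen, so the limma results given for them are descriptive. Upstream in number, *LOC_Os08g36860* was at 2.95 to 4.18 FPKM in PBT, 4.77 to 5.71 FPKM in GAT and 1.92 to 3.80 FPKM in the control. GAT libraries lay above all control libraries in 16.8% of the entries tested and above all PBT libraries in 17.4%. This entry was not called in GAT/Control (adjusted p = 0.148) or PBT/GAT (adjusted p = 0.371). On the other side, *LOC_Os08g36920*, described as an AP2 domain gene, is split over 2 entries. The entry with the locus transcript was at 11.1, 0 and 24.6 FPKM in GAT and listed at 0 in every PBT and control library. The entry with assembled transcripts only was at 4.40, 7.91 and 7.10 FPKM in PBT, at 0, 1.57 and 0 FPKM in GAT and at 1.85, 0.367 and 4.27 FPKM in the control. In PBT/GAT it met the DEG limits, at 2.41 on the log2 scale (adjusted p = 0.0293), where 3.48% of all entries tested were called as higher. The entry with the locus transcript was not called there, at -2.76 (adjusted p = 0.132). In GAT, the libraries with a value in the entry of the locus transcript are those listed at 0 in the other entry.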
